A study of Mus musculus with 5 samples.

Results

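The genes described here handle calcium and magnesium in the distal nephron of the mouse kidney, or encode the proteins that its cells secrete. They are Umod, Egf, Casr, Trpm6, Trpm7, Cnnm2, Trpv5, Calb1, Slc8a1 and S100g. They were taken by symbol, and all 10 were present among the 27998 genes of each of 5 single-nucleus matrices. Each is described in nuclei of the thick ascending limb (TAL), the distal convoluted tubule (DCT) and the connecting tubule (CNT), without injury and after ischaemia-reperfusion injury (IRI).

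The TAL reabsorbs salt without water, and the voltage across its wall drives calcium and magnesium out of the lumen between the cells. Its cells secrete uromodulin, the product of Umod and the main protein of normal urine, and the calcium-sensing receptor (Casr) on their blood side reduces calcium reabsorption when plasma calcium is high. The DCT takes up magnesium through the channel TRPM6, which epidermal growth factor (Egf), made as a membrane precursor in distal cells, stimulates. Trpm7 encodes the closely related and widely expressed channel, and Cnnm2 a protein of the basolateral membrane whose loss causes magnesium wasting. In the late DCT and the CNT calcium enters through TRPV5, is carried by the binding proteins calbindin-D28k (Calb1) and calbindin-D9k (S100g), and leaves through the sodium-calcium exchanger NCX1 (Slc8a1).

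Promoter sequence is shown for the pair of secreted proteins, whose RNA levels went apart after injury, and for S100g, which was lower in the CNT after injury. The sequences are RefSeq's, on GRCm38.p6, and 9 of the 10 members had an entry, with none for Calb1. Capitals mark the searched letters: GTTAAT or ATTAAC, a core of the site of the nephron transcription factor HNF1, and AAGGTCA or TGACCTT, a core of the site of oestrogen-related receptors. The Umod window lies at chr7:119479283-119479512 on the minus strand and holds GTTAAT 202 bases upstream of the RefSeq start. It stops where the GENCODE gene begins, 20 bases before that start.
Umod: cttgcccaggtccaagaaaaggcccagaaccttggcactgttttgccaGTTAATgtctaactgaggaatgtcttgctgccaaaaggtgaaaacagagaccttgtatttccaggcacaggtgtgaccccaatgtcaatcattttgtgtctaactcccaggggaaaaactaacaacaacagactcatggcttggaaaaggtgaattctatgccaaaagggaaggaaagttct
The Egf window, chr3:129755323-129755572 on the minus strand, held neither motif.
Egf: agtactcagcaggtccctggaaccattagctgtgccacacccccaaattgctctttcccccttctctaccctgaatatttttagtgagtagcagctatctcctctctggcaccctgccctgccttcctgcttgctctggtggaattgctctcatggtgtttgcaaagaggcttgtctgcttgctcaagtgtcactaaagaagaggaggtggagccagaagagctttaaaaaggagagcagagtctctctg
The S100g window, chrX:162964600-162964849 on the minus strand, held AAGGTCA 221 bases and TGACCTT 107 bases upstream of the start.
S100g: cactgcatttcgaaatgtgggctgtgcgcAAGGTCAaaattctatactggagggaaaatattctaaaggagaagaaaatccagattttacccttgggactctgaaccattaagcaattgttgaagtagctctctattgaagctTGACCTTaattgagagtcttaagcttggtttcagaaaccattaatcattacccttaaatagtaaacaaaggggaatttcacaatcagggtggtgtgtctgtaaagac
Of 32851 RefSeq windows of 250 bases, belonging to 27025 genes, 6.43% held the first motif and 4.08% the second on either strand. Among the members with an entry, 1 held the first and 1 the second. A match of letters is a description of the window only.

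On GRCm38 with GENCODE vM21, Umod spans chr7:119462711-119479282 (minus strand, 11 exons of the principal transcript) and Egf chr3:129677565-129755316 (minus, 24 exons). Casr spans chr16:36493696-36562141 (minus, 7 exons), Trpm6 chr19:18749983-18892511 (plus, 39 exons) and Trpm7 chr2:126791565-126876230 (minus, 39 exons). Cnnm2 spans chr19:46761596-46880192 (plus, 8 exons) and Trpv5 chr6:41652173-41680769 (minus, 15 exons). Calb1 spans chr4:15881264-15908064 (plus, 11 exons), Slc8a1 chr17:81373105-81738377 (minus, 11 exons) and S100g chrX:162961992-162964599 (minus, 3 exons). Gene length ran from 2.61 kb for S100g to 365 kb for Slc8a1, and introns made up 81.6% to 99.1% of it. Nuclear RNA was counted against a pre-mRNA reference, so reads in introns count and long genes collect more of them. Levels are therefore compared within a gene, not between genes. On the opposite strand S100g overlaps Ctps2, Umod Gm44588, Trpm6 Gm24190, Trpm7 Gm14212, and Slc8a1 AC122399.1 and Gm11096. Casr overlaps Gm25902 on the same strand. Egf overlaps Gm24515, Gm42697, Gm42650 and 6330410L21Rik, 1 of them on the same strand. The strand setting of the counting was not given in the sources used here, so reads of such partners may not be separable.

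All nuclei came from kidneys of male mice aged 10 to 12 weeks that carried 3 alleles: Six2-TGC, Rosa26rtTA and pTRE-H2BeGFP. Doxycycline food (625 mg/kg), given from soon after birth, marks the chromatin of cells descended from Six2-expressing nephron progenitors with GFP, a lineage that makes the nephron but not the collecting duct. Nuclei were sorted for DAPI and then GFP, and 1 droplet library (10x Genomics, 3′ end counting) stood for each group. The 5 groups were no injury GFP-negative, no injury GFP-positive, and IRI GFP-positive at 3 times, 64 h, 96 h or 28 d past the clamping and release of both renal pedicles. Serum creatinine was 0.122, 0.122, 0.375, 0.312 and 0.144 mg/dL and blood urea nitrogen 26.1, 26.1, 37.0, 91.8 and 31.7 mg/dL in that order. The equal values leave unknown whether the libraries without injury came from separate animals. The labels give no injury where the protocol also describes a sham operation. With 1 library per group no difference has a replicate check, and no p-value is given.

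Depth differed between the libraries. They held 3012 to 3508 barcodes and 1922002 (96 h) to 7153971 (no injury GFP-positive) unique molecular identifiers (UMIs, each counting 1 captured RNA molecule). Pairs of libraries shared 9 to 20 barcodes. TAL-like nuclei numbered 496, 327, 385, 190 and 233 in the order above, with median depths of 1218.5, 1091, 1013, 404 and 694 UMIs. DCT-like nuclei numbered 159, 52, 49, 16 and 38, and CNT-like nuclei 72, 69, 60, 42 and 40. The GFP-negative library, whose label says non-nephron, thus held many nephron nuclei, 390 of them proximal tubule (PT)-like. Segments were named from clusters built without the 10 genes. Slc12a1, the salt cotransporter that defines the TAL, stood at 12386 and 12965 CPM (counts-per-million units, the UMIs of the gene scaled to the total) in TAL-like nuclei without injury, against 98.4 and 54.2 in DCT-like ones. Slc12a3, the cotransporter of the DCT, stood at 16616 and 14774 CPM in DCT-like nuclei. Scnn1b, a subunit of the epithelial sodium channel, stood at 718 and 682 CPM in CNT-like nuclei.

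Values below are in the order no injury GFP-negative, no injury GFP-positive, 64 h, 96 h and 28 d unless stated. A level, in CPM, is the UMIs of a gene summed over the nuclei of a segment and scaled to the total UMIs of those nuclei. A ratio sets an IRI library against the no injury GFP-positive library, with an exact 95% interval. It is called a difference where it is at least 1.5-fold and the interval leaves out 1, and a gene counts as measured with at least 10 UMIs in both sums together. Intervals cover counting error only, and they are too narrow where UMIs gather in few nuclei. Where all IRI levels of a gene lie below both levels without injury, this is a description of the order. The share of all genes with such an order was not counted.

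Without injury the members split by segment. Umod, Egf and Casr were higher in TAL-like than in DCT-like and CNT-like nuclei in both libraries, and the other members lower. For Umod the TAL level was 5.87 times the level of the later segments in the GFP-negative and 11.4 times in the GFP-positive library. For Egf these ratios were 3.78 and 6.26, and for Casr 3.05 and 2.24. Egf was not limited to the TAL: DCT-like nuclei held 3019.8 and 2383 CPM, and 67.9% and 55.8% of them had a UMI. In PT-like nuclei, which should lack it, 15.6% and 10.3% had a UMI at deeper median counts of 2249 and 1937.5. CNT-like nuclei held 2 and 10 Egf UMIs in all.

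Between the DCT and the CNT the transport genes separated further. Trpm6 was 5.18 and 7.34 times as high in DCT-like as in CNT-like nuclei, Trpm7 3.87 and 4.59 times, and Cnnm2 4.73 and 6.43 times. Calb1 was 2.76 and 2.61 times as high in DCT-like nuclei. Slc8a1 stood at about the same level in both (ratios of 0.875 and 1.09), whereas S100g (0.265 and 0.125) and Trpv5 (0.246 and 0.459) were lower in the DCT. Trpv5 was sparse, with 99 UMIs over all nuclei of the study, so its order rests on 4 to 14 UMIs per sum. The order of Trpm6, Trpm7 and Cnnm2 on one side and S100g on the other was the same in both libraries.

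**Figure D1:**
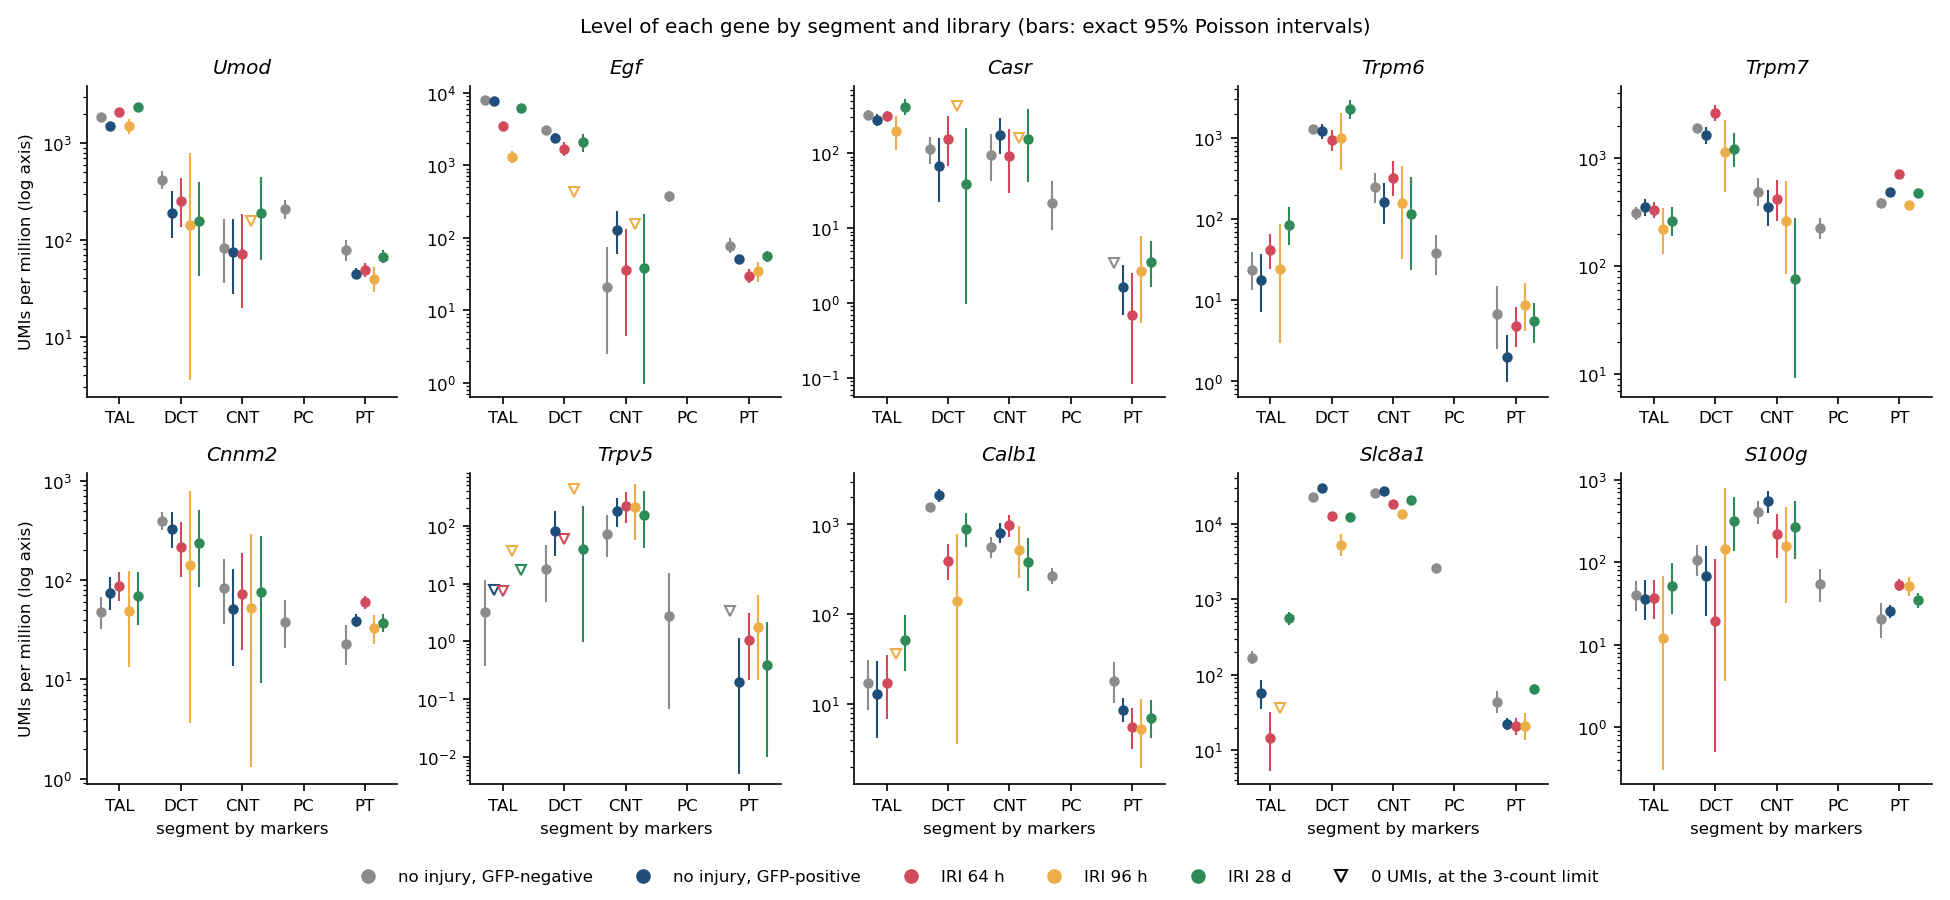
Level in CPM (log axis) for each gene in TAL-like, DCT-like, CNT-like, principal cell (PC)-like and PT-like sums; points are libraries, bars exact 95% Poisson intervals, and open triangles sums with 0 UMIs drawn at 3 counts. Umod, Egf and Casr are highest in the TAL, and Slc8a1 stands at 5259 CPM or more in every DCT and CNT sum.

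Egf was lower in the TAL at 64 h and 96 h after injury, and at 28 d the difference was under 1.5-fold. TAL-like nuclei held 8013, 7611, 3517, 1313 and 6068 CPM. Both libraries without injury stood above all IRI libraries, and 96 h was lowest. The ratios at the 3 times were 0.462 (0.434 to 0.492), 0.173 (0.141 to 0.209) and 0.797 (0.743 to 0.855), the last not called. Nuclei with an Egf UMI made up 83.7%, 74.3%, 45.2%, 25.8% and 63.1% of TAL-like nuclei. After each nucleus was thinned to 400 UMIs, which kept 496, 327, 385, 100 and 224 nuclei, the shares were 68.8%, 63.6%, 36.4%, 22% and 55.8%, in the same order of libraries. PT-like nuclei, which should lack Egf, held 78.3, 51.7, 29.6, 34.4 and 55.7 CPM of it, and their ratios of 0.573 at 64 h and 0.665 at 96 h were also called lower. Their thinned share was lowest at 64 h, at 1.06%. The part of free RNA in the TAL values was not tested.

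Umod did not share this course. TAL-like nuclei held 1856, 1493, 2091, 1496 and 2357 CPM, and no IRI library lay below the GFP-positive library without injury. Against the GFP-positive library the ratio was 1.40 (1.26 to 1.56) at 64 h, not called, and 1.00 (0.818 to 1.22) at 96 h. At 28 d it was called higher, at 1.58 (1.39 to 1.79). The libraries without injury differed from each other by a ratio of 1.24, and the 28 d level lies closer to the GFP-negative one. In PT-like nuclei Umod went from 45 to 67.1 CPM at 28 d, a ratio of 1.49 (1.21 to 1.83), and its part in the TAL value was not tested. Thinned shares of nuclei with a UMI were 45.4%, 37.9%, 49.1%, 34.0% and 52.7%.

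Both genes were also read together in single nuclei. Among TAL-like nuclei with a Umod UMI, 88.7%, 84.1%, 56.6%, 37.7% and 71.6% also had an Egf UMI. Among nuclei without a Umod UMI the shares were 69.9%, 57.1%, 20%, 17.7% and 46.2%. Nuclei with Umod had Egf more often in every library, and depth per nucleus, which raises both detections, differed between the libraries.

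TAL-like nuclei fell into 4 clusters that changed in proportion. Cluster 2 was led by Sgcz and Ano4 and was rich in Cldn10 (327 CPM against 14.4 CPM of Cldn16), and cluster 3 was led by Robo2 and Pappa2 and held 257 CPM of Cldn16. Cldn10 encodes a sodium-permeable and Cldn16 a calcium- and magnesium-permeable tight junction protein. Cluster 9 was led by Cdh20 and Thsd4, and cluster 11 by Kcnh1 and Bmp6. Slc12a1 stood at 14020, 10180, 12812 and 5060 CPM in clusters 2, 3, 9 and 11. The TAL marker score of cluster 11 was 2.69, with parietal epithelium next at 1.90. Cluster 11 made up 1.81% and 1.22% of TAL-like nuclei without injury and 48.1%, 82.6% and 38.2% after IRI. At 96 h clusters 2, 3 and 9 held 15, 3 and 15 nuclei.

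Egf was lower at 64 h within each of the 3 clusters that were common without injury. In cluster 3 it stood at 14223, 14207, 8284, 3413 and 11049 CPM, the 96 h value from 4 UMIs in 3 nuclei, and the 64 h ratio was 0.583 (0.524 to 0.648). In cluster 9 it stood at 13051, 13242, 6929, 2650.1 and 7381 CPM, with 64 h and 28 d ratios of 0.523 (0.477 to 0.574) and 0.557 (0.485 to 0.639). Cluster 2 began lower, at 2859 and 2547 CPM, and held 1149.7 CPM at 64 h, 2 UMIs at 96 h and 6003 CPM at 28 d. Its 28 d ratio of 2.36 (2.00 to 2.76) was called higher, against the direction in the other clusters. Cluster 11 held 509.5, 1231 and 2488 CPM of Egf at 64 h, 96 h and 28 d.

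Without cluster 11 the Egf ratio over the other TAL-like nuclei was 0.801 (0.750 to 0.854) at 64 h, no longer called, and 0.218 (0.142 to 0.320) at 96 h. With coarser clusters (resolution 0.5) the 64 h ratio was 0.777, and a cluster with Kcnh1 and Bmp6 among its leading genes stayed unnamed. TAL-like nuclei then numbered 210 at 64 h, against 200 without cluster 11, so both alternatives may leave out many of the same nuclei. Cluster 2, the poorest in Egf of the other clusters, made up 56.6% of TAL-like nuclei in the GFP-positive library without injury and 9.61% at 64 h. The 64 h call in the pooled nuclei thus depended on cluster 11, whereas each of the 3 other clusters was lower on its own, and at 96 h the call held with and without cluster 11. Umod in cluster 11 stood at 1234, 1381 and 1797 CPM after IRI. In cluster 2 it stood at 889 CPM in the uninjured GFP-positive library and at 1465 and 2220.3 CPM in the 64 h and 28 d libraries, with ratios of 1.65 (1.22 to 2.20) and 2.5 (1.9 to 3.26), and in cluster 9 the 64 h ratio was 1.65 (1.38 to 1.99).

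**Figure D2:**
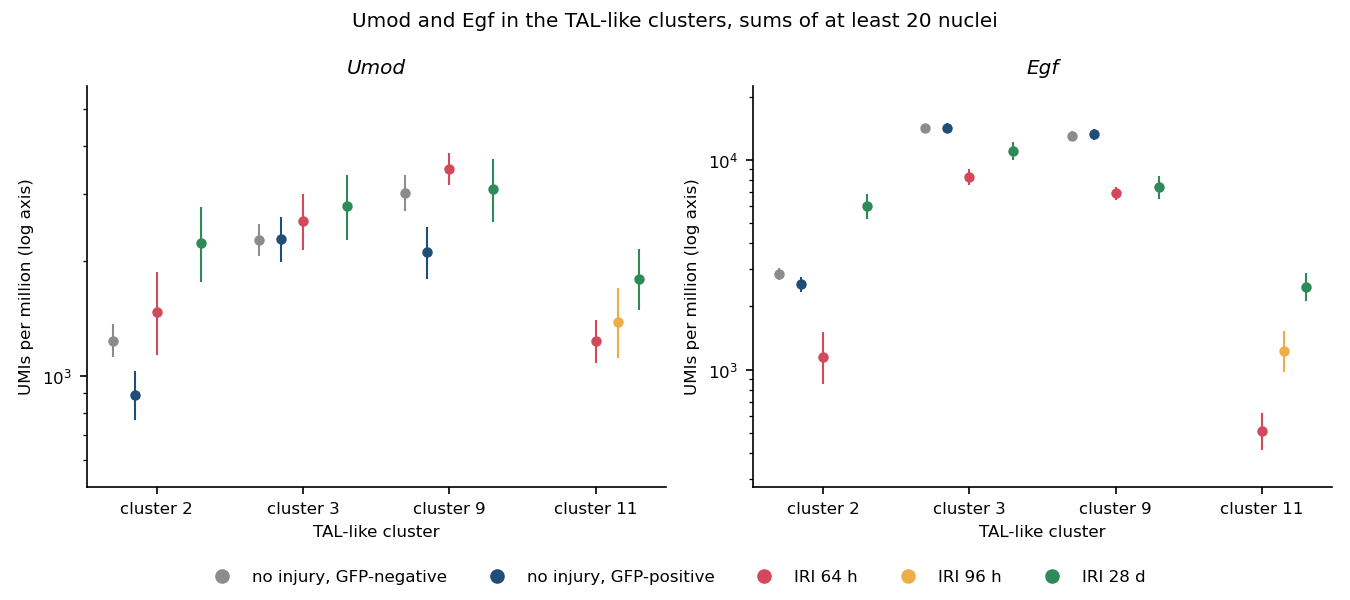
Level in CPM (log axis) of Umod and Egf in each TAL-like cluster, for libraries with at least 20 nuclei in it; bars are exact 95% Poisson intervals. Egf is lower at 64 h than without injury in clusters 2, 3 and 9, whereas Umod is not, and cluster 2 holds more Egf at 28 d than without injury.

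Casr, the calcium sensor, stood at 324, 279, 309, 195 and 417 CPM in TAL-like nuclei. Its ratios of 1.11 (0.852 to 1.45), 0.698 (0.385 to 1.19) and 1.5 (1.1 to 2.03) were not called, the last by falling just under the 1.5-fold limit. Within cluster 3 it was higher at 64 h, at 1.73 (1.08 to 2.78), and within cluster 2 at 28 d, at 2.55 (1.32 to 4.71). Cluster 11 held 137, 225 and 230.4 CPM after IRI, below the other clusters at 64 h and 28 d. PT-like nuclei held at most 3.53 CPM of Casr.

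In TAL-like nuclei Trpm7 stood at 308, 351, 334, 219 and 263 CPM and Cnnm2 at 47.4, 74.8, 87.6, 48.6 and 68.5 CPM, with no ratio called. Trpm6 gave 15, 7, 17, 2 and 15 UMIs, and its 28 d ratio of 4.74 (1.82 to 13.8) was called higher on these counts. Calb1 gave 11, 5, 7, 0 and 9 UMIs, S100g 25, 14, 15, 1 and 9, and Trpv5 2 UMIs in the GFP-negative library and none elsewhere.

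Slc8a1 in TAL-like nuclei gave 107, 22, 6, 0 and 98 UMIs. The ratio was 0.257 (0.0854 to 0.655) at 64 h and 9.86 (6.16 to 16.4) at 28 d, and at 96 h the level was at least 1.56-fold lower when 3 counts are set in place of 0. Single nuclei carried these sums: 53 of the 98 UMIs at 28 d lay in 1 nucleus, as did 7 of the 9 Calb1 UMIs. Without the 3 nuclei with most UMIs in each sum the 28 d ratio of Slc8a1 was 2.77 (0.984 to 8.07), the 64 h ratio 0.354 (0.0605 to 1.47), and neither was called. The GFP-negative library without injury differed from the GFP-positive one in the same gene, at a ratio of 2.98. Levels in PT-like nuclei were 20.9 to 64.7 CPM.

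In all, 2 of 9 measured members (Egf and Slc8a1) were called lower and 0 higher in TAL-like nuclei at 64 h, where 6.16% of all measured genes were lower and 8.64% higher. At 96 h the same 2 of 7 were lower and 0 higher, against 5.84% and 9.39% of all genes. At 28 d 4 of 9 (Umod, Trpm6, Calb1 and Slc8a1) were higher and 0 lower, against 6.47% and 4.03%. The members' median log2 ratio was 0.15, -0.68 and 0.58, against 0.06, 0.01 and 0.07 over all measured genes. Between the libraries without injury 1 of 9 members differed (Slc8a1, higher in the GFP-negative library), where 2.99% of genes were higher and 2.96% lower.

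**Figure D3:**
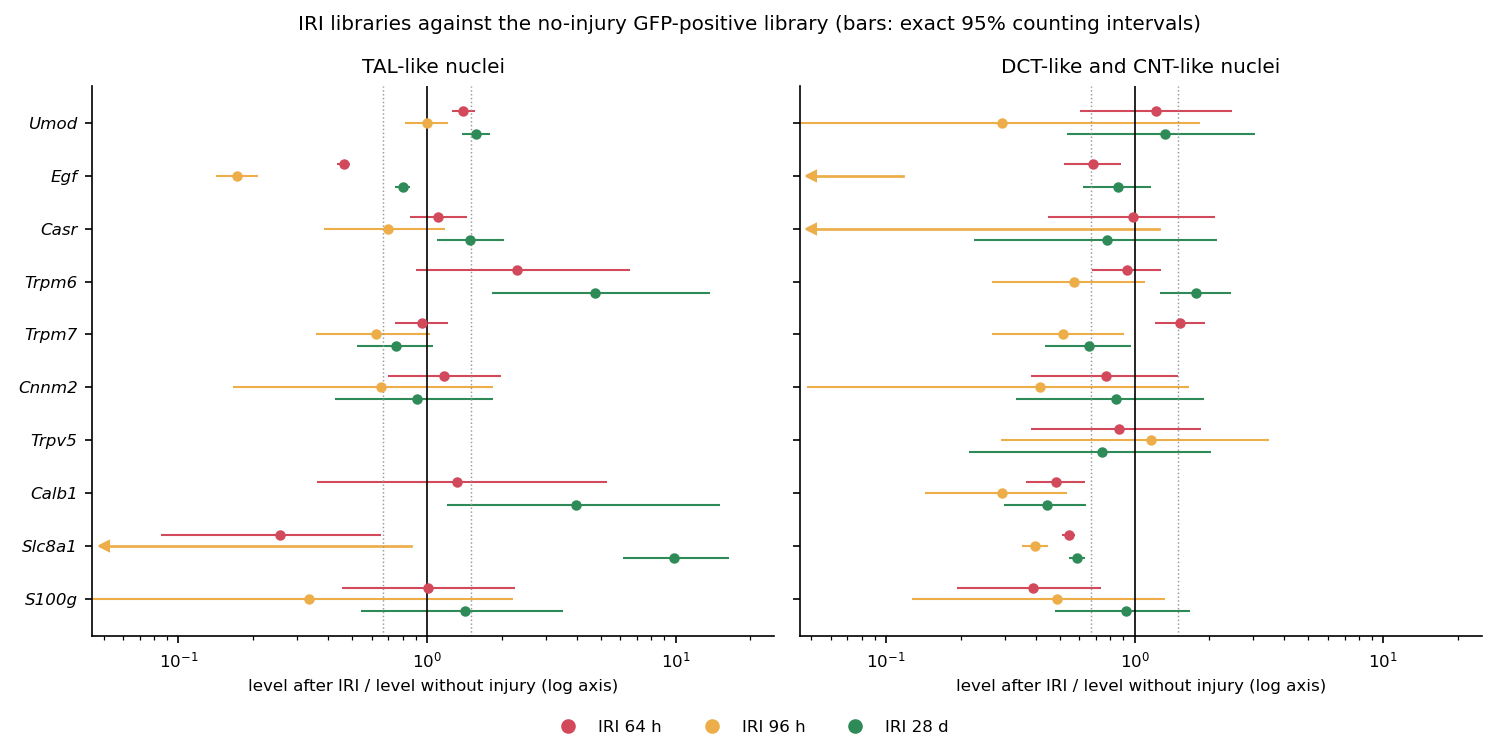
Ratio of each IRI library to the no injury GFP-positive library (log axis) for each member in TAL-like nuclei and in DCT-like and CNT-like nuclei together; bars are exact 95% counting intervals, dotted lines 1.5-fold, and arrows sums with 0 UMIs; Trpv5 in the TAL had too few UMIs to draw. Egf is lowest at 96 h in both, and in the DCT and CNT Slc8a1 and Calb1 lie left of 1 at all 3 times.

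Slc8a1 and Calb1 were lower in DCT-like nuclei after injury. Slc8a1, the exchanger that moves calcium to the blood, stood at 22682, 29886 and, after IRI, 12703, 5259 and 12497 CPM in DCT-like nuclei. Every IRI library lay below both libraries without injury. The ratios were 0.425 (0.389 to 0.464), 0.176 (0.124 to 0.243) and 0.418 (0.371 to 0.470), the 96 h value from 16 nuclei. Calb1 stood at 1552, 2112, 391, 142 and 895 CPM, and every IRI library again lay below both libraries without injury. Its ratios were 0.185 (0.110 to 0.296), 0.0673 (0.00169 to 0.380, from 1 UMI) and 0.424 (0.261 to 0.659).

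In single DCT-like nuclei Slc8a1 was either a large or a negligible part of the RNA. The highest nucleus gave it 14.5% of its UMIs without injury, while the median nucleus gave 0.0505% and 0.114%. Nuclei with at least 1% made up 27.0%, 34.6%, 22.4%, 12.5% and 26.3% of DCT-like nuclei, a limit set after the values were seen. Of 314 DCT-like nuclei, 16 lay between 0.5% and 2%, so the limit divides few neighbours. Among DCT-like nuclei with a Slc8a1 UMI the median share was 3.00%, 3.00%, 1.99%, 0.870% and 1.05%.

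**Figure D4:**
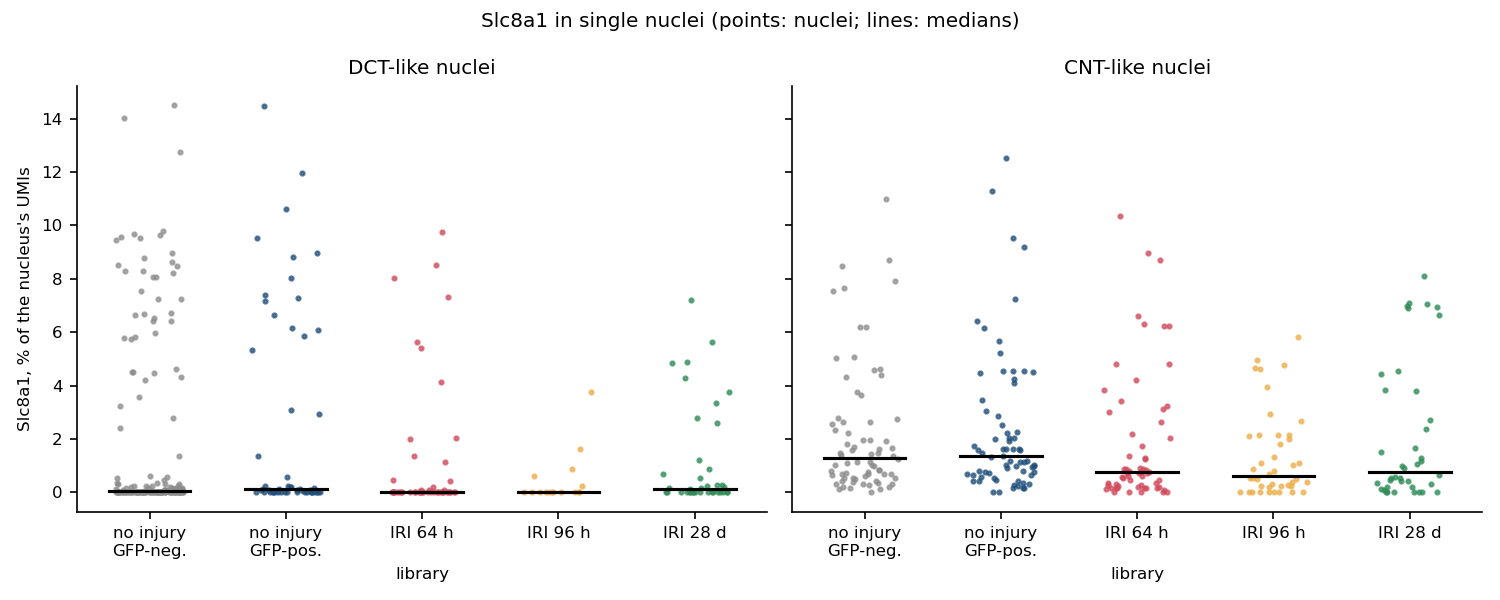
Slc8a1 as a percentage of each nucleus's UMIs in DCT-like and CNT-like nuclei, by library; each point is a nucleus and each line a median. DCT-like nuclei lie near 0 or above about 1%, with the highest at 14.5% without injury and 7.20% at 28 d, and CNT-like medians are 1.3% and 1.37% without injury and 0.615% to 0.779% after IRI.

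Other members were then read in both groups of DCT-like nuclei, with CPM taken over the UMIs of all genes except Slc8a1. Calb1 in nuclei with at least 1% Slc8a1 stood at 4473 and 4475 CPM in the libraries without injury, 97.7% and 94.4% of nuclei having a UMI, against 441 and 485 CPM in the rest. Egf went the other way, with 483 and 230.4 CPM in Slc8a1-rich nuclei and 4127 and 4097 CPM in the rest. Trpm7 did likewise, at 756 and 889 CPM against 2406 and 2254 CPM. Trpm6 stood at 1545 and 1185 CPM against 1235 and 1285 CPM, and the DCT marker Slc12a3 at 15060.3 and 14940.1 against 17773 and 15442 CPM. The 4 and 6 Trpv5 UMIs of DCT-like nuclei without injury all lay in Slc8a1-rich nuclei, as did 24 of 24 S100g UMIs in the GFP-negative and 3 of 5 in the GFP-positive library. Nuclei of the group are not replicates, and each value is the sum of 1 library.

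After IRI Calb1 was also lower among the Slc8a1-rich DCT-like nuclei themselves. It stood at 1496 CPM at 64 h (17 UMIs in 11 nuclei) and 1951 CPM at 28 d (14 UMIs in 10 nuclei), against 4475 CPM without injury. At 96 h 2 such nuclei held 1 Calb1 UMI. Egf in the Slc8a1-poor nuclei was 2073 CPM at 64 h and 2639 CPM at 28 d, and no UMI was found in 14 nuclei at 96 h.

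Magnesium entry genes behaved differently from Calb1. Trpm6, the apical magnesium channel, stood at 1293, 1205, 939, 995 and 2258 CPM in DCT-like nuclei. The 64 h and 96 h ratios, 0.780 (0.537 to 1.12) and 0.825 (0.323 to 1.77), were not called, and 28 d was higher than in either library without injury, at 1.87 (1.32 to 2.64). Slc12a3, the marker of these cells, also stood highest at 28 d, at 20751 CPM. Trpm7 stood at 1892, 1625, 2623, 1137 and 1207 CPM and was called higher at 64 h, at 1.61 (1.25 to 2.08). PT-like nuclei held 386, 486, 716, 366 and 475 CPM of Trpm7, also highest at 64 h. Cnnm2 stood at 394, 325, 215, 142 and 234 CPM, the IRI levels being lower than both without injury, but no ratio was called on 1 to 24 UMIs.

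Egf in DCT-like nuclei stood at 3019.8, 2383, 1683, 0 and 2063 CPM. No UMI was found at 96 h, at least 5.59-fold lower than without injury, and the 64 h and 28 d ratios of 0.706 (0.539 to 0.919) and 0.866 (0.624 to 1.18) were not called. The same library was thus lowest for Egf in both the TAL and the DCT. Of 8 measured members 1 was called higher and 2 lower in the DCT at 64 h (4.33% and 2.67% of all genes). At 96 h 0 of 7 were higher and 3 lower (3.5% and 1.3%), and at 28 d 2 of 8 were higher and 2 lower (3.49% and 1.99%). The second gene higher at 28 d was S100g, at 4.60 (1.33 to 17.9) from 8 and 5 UMIs. The libraries without injury differed from each other in Umod (ratio 2.19, GFP-negative higher) and Trpv5 (0.220), where 1.71% of genes were higher and 2.66% lower.

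CNT-like nuclei kept Slc8a1 in most nuclei. It stood at 25936, 27409, 18163, 13699 and 21005 CPM, and 98.6%, 97.1%, 91.7%, 78.6% and 82.5% of nuclei had a UMI. The 64 h and 96 h ratios of 0.663 (0.614 to 0.715) and 0.50 (0.438 to 0.568) were called lower, and the 28 d ratio of 0.766 (0.697 to 0.842) was not. S100g, the small calcium-binding protein, stood at 406, 543, 217, 157 and 268 CPM, and all IRI libraries lay below both without injury. Its ratios were 0.400 (0.192 to 0.771), 0.289 (0.0573 to 0.902, from 3 UMIs) and 0.493 (0.187 to 1.11, not called). PT-like nuclei held 20.4 to 53.3 CPM of S100g.

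Calb1 in CNT-like nuclei did not follow the DCT at 64 h. It stood at 562, 809, 977, 523 and 383 CPM, with a 64 h ratio of 1.21 (0.825 to 1.76), and was called lower only at 28 d, at 0.473 (0.217 to 0.928). The 64 h interval does not overlap that in the DCT (0.110 to 0.296), but both are from the same pair of libraries and the difference was not tested. Trpv5, the calcium entry channel, stood at 72.8, 177, 217, 209 and 153 CPM from 4 to 14 UMIs, and none of its ratios was called. Trpm7 was lower at 28 d, at 0.216 (0.0250 to 0.858) from 2 UMIs. Of the members, 0 were called higher at each time. Those called lower were 2 of 9 at 64 h, 2 of 8 at 96 h and 2 of 9 at 28 d, where 3.21%, 4.14% and 2.97% of all genes were lower and 5.91%, 4.72% and 2.97% higher.

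Over DCT-like and CNT-like nuclei together, Slc8a1 ratios were 0.543 (0.513 to 0.575), 0.400 (0.354 to 0.449) and 0.587 (0.545 to 0.631), and Calb1 ratios 0.484 (0.367 to 0.632), 0.292 (0.144 to 0.533) and 0.443 (0.297 to 0.640). After thinning to 400 UMIs the Calb1 ratios of 0.670 at 64 h and 0.571 at 96 h, and the Slc8a1 ratio of 0.676 at 28 d, were not called. At 64 h 1 of 10 members (Trpm7) was higher and 3 (Calb1, Slc8a1 and S100g) lower, where 5.1% and 3.15% of all genes were. At 96 h 0 were higher and 4 (Egf, Trpm7, Calb1 and Slc8a1) lower (5.41% and 3.19%), and at 28 d 1 (Trpm6) was higher and 3 (Trpm7, Calb1 and Slc8a1) lower (3.34% and 2.15%). Median log2 ratios were -0.29, -1.29 and -0.30 for the members and 0.08, -0.08 and -0.02 for all measured genes. The pooled sums mix segments in unequal shares: DCT-like nuclei were 68.8%, 43%, 45%, 27.6% and 48.7% of them. Between the libraries without injury 4 members were higher (Umod, Egf, Trpm7 and Cnnm2, ratios of 1.52 to 2.42) and 2 lower (Trpv5 and S100g) in the GFP-negative library, where 2.79% and 4.07% of genes were. Slc8a1 (0.827), Calb1 (0.872) and Trpm6 (1.47) were not called there.

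A further distal cluster was left unnamed because its DCT marker score of 1.70 was within 0.3 of that of the next class, parietal epithelium (1.64). Cluster 8, led by Clu, Lif and Lcn2, held 2520 CPM of Slc12a3 and had 98 nuclei at 64 h, 176 at 96 h and 13 at 28 d, against 2 and 0 without injury. At 64 h and 96 h it held 387 and 391 CPM of Trpm6, 637 and 1941 CPM of Slc8a1, and 17.2 and 25.2 CPM of Calb1. Egf stood at 103 and 88.2 CPM and Trpm7 at 1101 and 391 CPM. These levels lay below those of DCT-like nuclei in the same libraries for each of these 5 genes, except Egf at 96 h. With cluster 8 added to the DCT-like and CNT-like nuclei, an alternative chosen after seeing the data, Slc8a1 ratios were 0.271, 0.15 and 0.495 and Calb1 ratios 0.237, 0.0857 and 0.373.

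**Figure D5:**
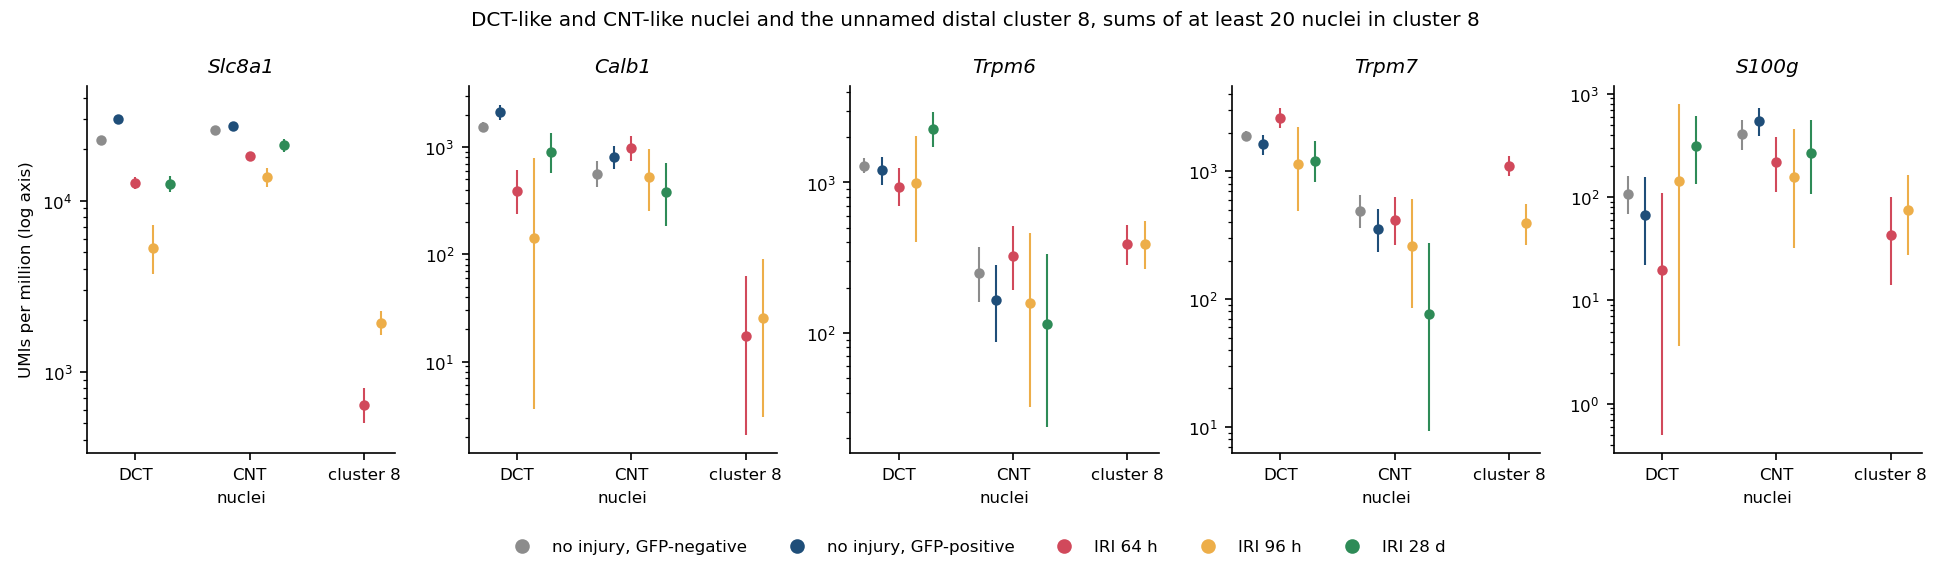
Level in CPM (log axis) of 5 members in DCT-like and CNT-like nuclei and in the unnamed cluster 8, by library; bars are exact 95% Poisson intervals, and cluster 8 is drawn where it had at least 20 nuclei. Slc8a1 and Calb1 are lower after IRI than without injury in the DCT, Calb1 at 64 h in the CNT is not, and cluster 8 holds less of both than any DCT or CNT sum.

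Marker lists were summed over the same nuclei. In TAL-like nuclei the summed level of the tubule injury list was 424, 477, 3498, 2419.6 and 1313 CPM, and that of the TAL marker list 15164, 15807, 11360.3, 8511 and 10725 CPM. In DCT-like and CNT-like nuclei the injury list was at 432, 444, 1683, 2446 and 675 CPM, the DCT list at 17701, 12269, 11197, 7339 and 15244 CPM and the CNT list at 6532, 8485, 6769, 8180 and 6773 CPM. The CNT list after IRI thus stayed between its levels without injury. The PT list in TAL-like nuclei stood at 563, 1826, 691, 1058 and 2220 CPM, with 11 or 12 of its 12 genes detected. The part of cell makeup, free RNA and depth in the members' ratios was not tested.

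Genes of the same pathways, beside the members, did not share 1 direction in the TAL. Over all measured genes 8.64%, 9.39% and 6.47% were called higher there at the 3 times, and 6.16%, 5.84% and 4.03% lower. Of the magnesium list 2 of 15 measured genes were higher and 1 lower at 64 h, 1 and 2 of 13 at 96 h, and 0 and 2 of 12 at 28 d. Cldn19, the partner of claudin-16 in the magnesium pore, was higher at 64 h and 96 h, at 1.84 (1.26 to 2.73) and 2.52 (1.45 to 4.28). Fxyd2, a regulator of the sodium pump linked to magnesium wasting, was lower at 28 d, at 0.633 (0.543 to 0.735). Of the calcium list 4 of 10 were higher and 1 lower at 64 h, 4 and 0 of 9 at 96 h, and 1 and 0 of 9 at 28 d. Pth1r, the parathyroid hormone receptor, went from 134 to 307 and 693 CPM at 64 h and 96 h (ratios of 2.29 and 5.17). Atp2b1, the plasma membrane calcium pump, was higher at all 3 times, at 1.78, 1.89 and 1.97. Kl, the FGF23 co-receptor, was lower at 64 h, at 0.348 (0.200 to 0.583).

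Of 11 measured genes of the list of salt transport of the TAL, 5, 4 and 5 were called lower and 0, 1 and 0 higher at the 3 times, where 6.16%, 5.84% and 4.03% of all measured genes were lower. The list's median log2 ratios were -0.50, -0.47 and -0.56, against 0.06, 0.01 and 0.07 over all measured genes. Fewer genes of the list were called in single clusters, whose sums are smaller and whose proportions differed between the libraries. The part of the proportions was not tested. Within clusters 2, 3 and 9, 2, 2 and 0 genes of the list were lower and 0, 0 and 2 higher at 64 h, with medians of -0.08, 0.01 and 0.09. At 28 d 3, 0 and 0 were lower and none higher, with medians of -0.45, -0.12 and 0.07. In cluster 11, set against 4 nuclei without injury, 2 were lower and 0 higher at each time. The list's medians in cluster 11 were -0.82, -0.32 and -0.73, against 5.88, 0.25 and 0.28 over all measured genes. The share of all genes called was not counted in single clusters. The values that follow are over all TAL-like nuclei. Slc12a1 itself was called lower at 96 h, at 0.522 (0.478 to 0.570). Slc9a3, a sodium-proton exchanger, had ratios of 0.405, 0.241 and 0.429, and Cldn10 0.444, 0.242 and 0.473. Of the distal transcription factor list 4 of 11, 5 of 10 and 4 of 10 were lower and 1, 0 and 0 higher. Esrrg, an oestrogen-related receptor, had ratios of 0.612, 0.414 and 0.645, Esrrb 0.658, 0.524 and 0.313, and Tfap2b 0.596, 0.538 and 0.563. Within clusters 2, 3 and 9, 0 factors of the list were called lower at 64 h and 1, 0 and 1 higher. At 28 d 3, 0 and 0 factors were lower and none higher.

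The list of secreted proteins and their processing was read in TAL-like nuclei. Of its measured genes 5 of 10, 3 of 9 and 4 of 10 were called higher and 0 lower. Over all measured genes 8.64%, 9.39% and 6.47% were called higher. The list's median log2 ratios were 0.69, 1.22 and 0.27, against 0.06, 0.01 and 0.07 over all measured genes. Within clusters 2, 3, 9 and 11, 3 of 7, 3 of 5, 2 of 6 and 1 of 6 were called higher at 64 h and 0 lower. At 96 h 0, 0, 1 and 0 were higher and 0 lower. At 28 d none was called higher, and 1 was lower in cluster 3 and 1 in cluster 9. Cluster 11 was set against 4 nuclei without injury. The share of all genes called was not counted in single clusters or in PT-like nuclei. PT-like nuclei had 6 of 10, 5 of 9 and 5 of 10 higher and 1, 1 and 0 lower, and the part of free RNA in either segment was not tested. Spp1 (osteopontin) had ratios of 7.77, 3.86 and 2.27, and Wfdc2 2.42, 4.16 and 1.84. Hspa5, a chaperone of the endoplasmic reticulum, was higher at 64 h, at 3.49 (2.11 to 6.04). Of the EGF family and its receptors 2 of 6, 2 of 5 and 1 of 5 were higher and 0 lower. Nrg1, a ligand of this family, had ratios of 3.32, 2.70 and 1.74, and Hbegf went from 3 to 22 UMIs at 64 h, at 6.92 (2.08 to 36.1). Erbb4, the abundant receptor of the TAL, had ratios of 0.930, 0.771 and 1.22, none called. The tubule injury list had 7 of 10, 4 of 5 and 4 of 4 higher and 0 lower, with Clu at 12.6, 14.7 and 7.38.

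In DCT-like and CNT-like nuclei together fewer pathway genes were called. Over all measured genes 5.1%, 5.41% and 3.34% were called higher there at 64 h, 96 h and 28 d, and 3.15%, 3.19% and 2.15% lower. Of the magnesium list 0 of 10 were higher at any time, and 0, 2 and 1 lower. Kcnj10, the basolateral potassium channel of the DCT, went from 24 UMIs without injury to 7, 0 and 1, and was called lower at 96 h and 28 d. Of the calcium list 0 of 8, 1 of 7 and 0 of 7 were higher and 1, 0 and 1 lower. Slc12a3 was lower at 96 h, at 0.566 (0.460 to 0.689), where the DCT share of nuclei was also lowest. DCT-like nuclei alone did not show this fall, with Slc8a1 left out of the total. Those with under 1% Slc8a1 held 14928 CPM of Slc12a3 at 96 h (14 nuclei), against 15442 CPM in the GFP-positive library without injury. Those with at least 1% held 19588 CPM (2 nuclei), against 14940 CPM. Of the secreted list 3 of 6, 2 of 5 and 0 of 5 were higher and 0 lower, with Spp1 at 3.68, 3.27 and 1.04.

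Genes with the most similar pattern were sought over 52 sums of a cell class in a library, with 6596 candidate genes, by Pearson's r of log2(CPM + 10). The sums share libraries and depth, so r is a description. Umod was nearest to Slc12a1 (0.828), 4732465J04Rik (0.821) and Wfdc15b (0.798). Egf was nearest to Ppp1r1a (0.880), Wfdc15b (0.871) and Mfsd4 (0.801), and Casr to Slit2 (0.838), Tmem72 (0.835) and Efhd1 (0.814). Among the transport genes Trpm6 was nearest to Slc12a3 (0.779), Calb1 to Tmem52b (0.841) and Tox3 (0.821), and Slc8a1 to Phactr1 (0.877) and Tox3 (0.854). The nearest genes to Trpm7 (Lhx1os, 0.734), Cnnm2 (Cacnb4, 0.673) and S100g (A4galt, 0.654) had lower r, and Trpv5 had too few UMIs.

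Scaling affects direction over all genes. By library total 58.4%, 61.6% and 61.6% of the genes called in TAL-like nuclei were higher, and by trimmed mean of M-values (TMM) 50.9%, 28.9% and 38.6%. In DCT-like and CNT-like nuclei the shares were 61.8%, 62.9% and 60.8% against 46.2%, 11.1% and 19.5%. TMM moved log2 ratios by -0.05, -0.35 and -0.17 in the TAL and by -0.14, -0.70 and -0.27 in the later segments. Under it Egf in the TAL at 64 h and 96 h, and Slc8a1 and Calb1 in the later segments at all 3 times, were still called lower, whereas Umod in the TAL at 28 d (1.40), Trpm7 at 64 h (1.39) and Trpm6 at 28 d (1.46) in the later segments were no longer called higher.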

How the data were processed

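The deposited matrices hold UMI counts per gene and nucleus (polyA nuclear RNA), made per the submitters' processing notes with Cell Ranger 2.1, STAR 2.5.1b and bcl2fastq 2.17 (genome mm10), and, per the series' design text, a pre-mRNA reference. The barcode-calling rule and strand setting were not given in the sources used here. Nuclei needed 200 or more detected genes and no more than 10% of UMIs from mitochondrial genes. Counts were scaled to 10000 per nucleus and log-transformed, and 2000 variable genes without the 10 members, 30 principal components (20 for the distal nuclei alone), 15 neighbours and Leiden clustering at resolution 1 gave clusters, without integration across libraries. Clusters were named from 16 marker classes, by at least 3 detected markers and a margin of 0.3 over the next class. No competing class could have more markers among the 10 leading genes than the cluster's own class. DCT and CNT shared a group in both rules, so only the higher score, without a margin, divided them. Clusters with 4 or more injury genes among the leading genes, or 3 and no marker of their own, stayed unnamed. No doublet caller was run, and clusters led by more markers of another class than of their own stayed unnamed. UMIs were summed per library and segment, with exact Poisson, conditional binomial and Clopper-Pearson intervals, and scripts were checked on simulated data. All 10 members are named. Beside them at most 4 genes of each pathway list are named, those with most UMIs and those called with the largest ratio, and the 3 genes nearest in pattern. Members and lists were chosen with earlier results of these data known. Alternatives were TMM scaling, other clusterings, a marker gate, thinning to 400 UMIs and other minimums. The tools were scanpy 1.11.5, leidenalg 0.10.2, igraph 0.11.9, scikit-learn 1.9.0, scipy 1.17.1, numpy 2.4.6, pandas 2.3.3 and matplotlib 3.10.9 in Python 3.11.15, and edgeR 4.0.16 in R 4.3.3 (TMM only). Coordinates came from GENCODE vM21 and promoters from RefSeq.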

Additional observations from a re-analysis of the deposited data

Results flagged for a closer look

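At 28 d 2 members went opposite ways in 2 segments of the same library, both against the no injury GFP-positive library. Calb1 had a ratio of 3.98 in TAL-like nuclei and 0.443 in DCT-like and CNT-like nuclei. Slc8a1 had a ratio of 9.86 in TAL-like nuclei and 0.587 in DCT-like and CNT-like nuclei. The difference between segments was not tested. The TAL sums rest on few nuclei: 7 of 9 Calb1 UMIs and 53 of 98 Slc8a1 UMIs lay in 1 nucleus each, and both genes are abundant in the later segments. Without the 3 nuclei with most UMIs Calb1 had 0 UMIs left at 28 d, and Slc8a1 had a ratio of 2.77 (0.984 to 8.07), no longer called.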

How the results depend on the processing

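No paired analysis was possible because each group had 1 library. The alternatives were run on TAL-like nuclei and on DCT-like and CNT-like nuclei together. Calls in DCT-like or CNT-like nuclei alone, in single clusters or in PT-like nuclei had no alternative run. Of 20 called member ratios, 17 kept their call with TMM scaling, 19 with at least 400 genes per nucleus (which left 16 TAL-like and 9 DCT-like and CNT-like nuclei at 96 h), 15 and 17 at clustering resolutions 0.5 and 2.0, 17 with a marker gate, 11 after thinning to 400 UMIs and 16 with at least 30 UMIs. Leaving out clusters led by Lcn2 or Clu, or dropping the UMI minimum, could not change these calls: no named distal cluster was led by either gene, and a lower minimum removes no call. Chosen after seeing the data, leaving out the 3 nuclei with most UMIs kept 16 of 20, leaving out TAL-like cluster 11 kept 5 of 8, and adding the unnamed cluster 8 kept 10 of 12.

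Egf in the TAL at 96 h was called lower under every alternative run, at ratios of 0.129 to 0.247. Its 64 h call was lost at resolution 0.5 (0.777) and without cluster 11 (0.801). Slc8a1 in the DCT and CNT kept its calls at 64 h and 96 h throughout, and lost that at 28 d when thinned (0.676). Calb1 there lost its 64 h and 96 h calls when thinned (0.670 and 0.571).

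Members lower in the TAL at 64 h numbered 2, and 1 at resolution 0.5, with the gate, thinned, at 30 UMIs, without cluster 11 or without the top nuclei. Members higher there numbered 0, and 2 at resolution 0.5 and without cluster 11, and 1 at resolution 2.0 and when thinned. At 96 h 2 were lower, and 4 under TMM and 1 with 400 genes, at either resolution, at 30 UMIs and without cluster 11. At 28 d 0 were lower, and 1 under TMM and with 400 genes, and 4 were higher, and 2 when thinned, at 30 UMIs or without the top nuclei. In the DCT and CNT 1 was higher at 64 h, and 0 under TMM, at resolution 0.5, when thinned and with cluster 8. At 96 h 4 were lower, and 7 under TMM, 2 when thinned and 8 with cluster 8. At 28 d 1 was higher, and 0 under TMM and 2 with the gate.

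Direction reversed in 4 cases, as log2 ratios: Trpm7 in the DCT and CNT at 96 h at resolution 2.0 (0.15) and at 28 d with the gate (0.29), Slc8a1 in the TAL at 64 h with the gate (0.35), and Calb1 in the TAL at 28 d without the top nuclei (-2.62, from 0 UMIs). Beyond the number of nuclei and UMIs left, the cause was not tested. At 96 h the median depth of 404 UMIs per TAL-like nucleus limits genes such as Trpv5, Calb1 and S100g.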
